A study of Mus musculus with 21 samples.

Results

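The stretch of mouse chromosome 10 between positions 67000001 and 68000000 (build mm9, 1 Mb) holds Arid5b and Rtkn2, the 2 genes named in the rule that chose it. It was chosen because many DNase I hypersensitive sites (DHS) of this stretch were lost between the first and the second of 3 progenitor stages. Every peak of the 4 deposited lists that overlapped it was taken: 69 of 66499 DHS of the all-lymphoid progenitor (ALP), 57 of 70088 DHS of the early innate lymphoid progenitor (EILP), 60 of 71973 DHS of the innate lymphoid cell precursor (ILCP), and 8 of 6679 TCF1 peaks of EILP. The DHS merged into 97 regions of 102384 in the genome wherever peaks shared at least 1 bp. The contrast that chose the stretch, EILP against ALP, is given below as a description, with no test.

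All cells were sorted from the bone marrow of C57BL/6 mice that carried an EGFP reporter at Tcf7, the gene of the transcription factor TCF1. ALP were lineage-negative Kit+ 2B4+ cells, a4b7-, Flt3 high and IL-7Ra+, and were labelled Tcf7EGFP/+. EILP were lineage-negative Kit+ 2B4+ cells, a4b7+, Tcf7+ and Thy1-, and were labelled Tcf7EGFPnull/+. ILCP shared those sort marks of EILP except that they were Thy1+ and IL-7Ra+, and were labelled Tcf7EGFP/+ as ALP were. The file headers name all 3 stages WT, so the labels and the headers differ on EILP, and, if the label of EILP is right, its stage and its genotype cannot be told apart. DNase-seq reads the cuts that DNase I makes in open chromatin, and was made from 300 cells per library with 3 libraries per stage. CUT&RUN, in which an antibody guides a nuclease to DNA beside a bound protein, was made from 500 EILP per library, with 6 TCF1 and 4 IgG libraries by their titles, some of them technical repeats. The antibody label of the IgG libraries names TCF1 as well. Another 2 CUT&RUN libraries carry labels that name both TCF1 and IgG and were put in no group. Each deposited list pools its libraries, with 12420429 tags in ALP, 11236009 in EILP, 12681410 in ILCP, 2418839 for TCF1 and 2919489 for its control. There is 1 value per list, with no error between libraries and no test.

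Arid5b encodes a DNA-binding protein with an AT-rich interaction domain that works with the histone demethylase PHF2 on methylated histone H3. Rtkn2 is a protein-coding gene whose expression has been described in lymphocytes. TCF1 is an HMG-box factor needed for T cells and for innate lymphoid cells, and it opens chromatin or binds sites that are already open. DHS mark promoters and enhancers, and a large gene can hold many of them in its introns and in the flanking DNA. In the GRCm38.p6 gene table the protein-coding genes run in the order Egr2, Ado, Zfp365, Rtkn2, Arid5b, Cabcoco1, Tmem26, and the long non-coding RNA gene Gm51770 lies inside Arid5b. Egr2 encodes a zinc-finger transcription factor and Ado a thiol dioxygenase. No gene model of build mm9 was used here, so regions are placed against the approximate gene spans of the rule, 67555000 to 67742000 for Arid5b (187 kb) and 67442000 to 67522000 for Rtkn2 (80 kb), and not against exons or introns.

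Arid5b lies on the minus strand, so its start is at the high-coordinate end of its span. Rtkn2 lies on the plus strand, as background knowledge has it, and its low-coordinate end was taken as its start side. The RefSeq promoter of Arid5b is shown because a TCF1 peak and a group of DHS lay near the start side of the gene. It is chr10:68278677-68278976 of GRCm38.p6, minus strand, which is another build than that of the peaks. Capitals mark the 50 bases after the annotated start, and the 250 bases before it are in lower case.
Arid5b: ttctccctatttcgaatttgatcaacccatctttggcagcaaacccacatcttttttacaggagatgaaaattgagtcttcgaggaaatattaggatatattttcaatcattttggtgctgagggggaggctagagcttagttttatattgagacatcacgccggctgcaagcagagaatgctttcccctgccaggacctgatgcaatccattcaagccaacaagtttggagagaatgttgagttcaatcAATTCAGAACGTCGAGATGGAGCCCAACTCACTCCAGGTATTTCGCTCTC
The letters CTTTGA and CTTTGT, the core that TCF factors bind, were searched on both strands. Neither was found in these 300 bases, and 31.2% of the 32817 promoters of this length in the table held at least 1 of them. Against the approximate span, the TCF1 peak lay 899 bp beyond the start side and the nearest DHS 1374 bp inside it. By these distances both lie outside the bases shown, and the sequence under them was not searched. Of the 2 genes, 1 had a promoter entry, and Rtkn2 had none.

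DHS of the stretch covered 13347 bp at ALP, 12420 bp at EILP and 13208 bp at ILCP. Peak height is the authors' pileup, in extended tags over the summit. Its median in the stretch was 11 tags at ALP, 12 at EILP and 13 at ILCP, against genome-wide medians of 14, 13 and 13 tags. Peak strength is the authors' fold enrichment over the local background. By median height the sites of the stretch were lower than the genome's at ALP and EILP and equal to it at ILCP. Their median fold was 6.61 at ALP, 6.25 at EILP and 7.17 at ILCP, against genome-wide medians of 6.95, 6.87 and 6.91.

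**Figure D1:**
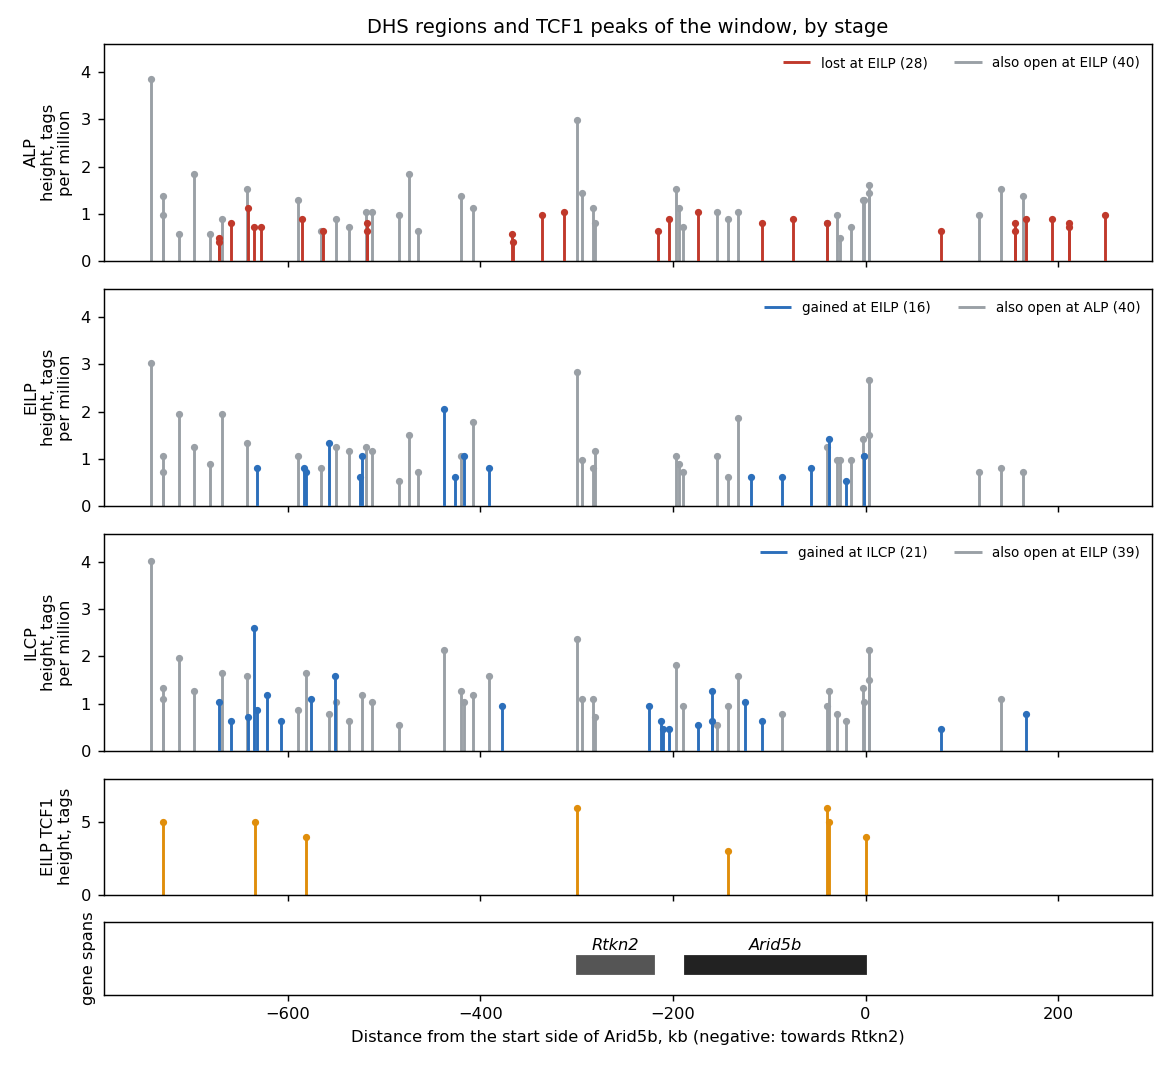
Depth-scaled height of every DHS region (tags at the summit divided by the tags of the list) at ALP, EILP and ILCP, and height of the TCF1 peaks in tags, by distance in kb from the start side of Arid5b, with the gene spans at the bottom. The 28 regions lost at EILP (red) are low at ALP and stand mostly outside the spans, and the last 200 kb on the right hold 3 regions at EILP against 11 at ALP.

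From ALP to EILP, 28 of the 68 ALP regions had no EILP DHS, or 41.2% (95% Wilson interval 30.3 to 53.0, which covers the counting of regions only), beside 24.1% genome-wide. This is the value the stretch was chosen on. Over the same step 16 of 56 EILP regions had no ALP DHS and count as gained, or 28.6% (18.4 to 41.5), beside 28.1% genome-wide. Of 454 windows of 1 Mb with at least 50 ALP regions, 1 had a higher share lost.

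The losses were unevenly placed. The Rtkn2 span held 4 ALP regions, and 0 of them were lost. At the genome-wide loss share of regions of the same strength, 0.469 losses were expected among these 4. The Arid5b span held 13 ALP regions, of which 4 were lost, or 30.8% (12.7 to 57.6). Together the gene spans lost 4 of 17 ALP regions, or 23.5% (9.56 to 47.3), whereas outside both spans 24 of 51 were lost, or 47.1% (34.1 to 60.5). The part above the start side of Arid5b (258 kb) lost 8 of 13, or 61.5% (35.5 to 82.3). The part below Rtkn2 (442 kb) lost 14 of 33, or 42.4% (27.2 to 59.2), and the short gap between the genes lost 2 of 5. At the genome-wide loss share of regions of the same strength, 4.09 losses were expected in the gene spans and 14.9 outside both. The share lost was thus lower in the gene spans than around them, but the intervals overlap and the difference was not tested.

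**Figure D2:**
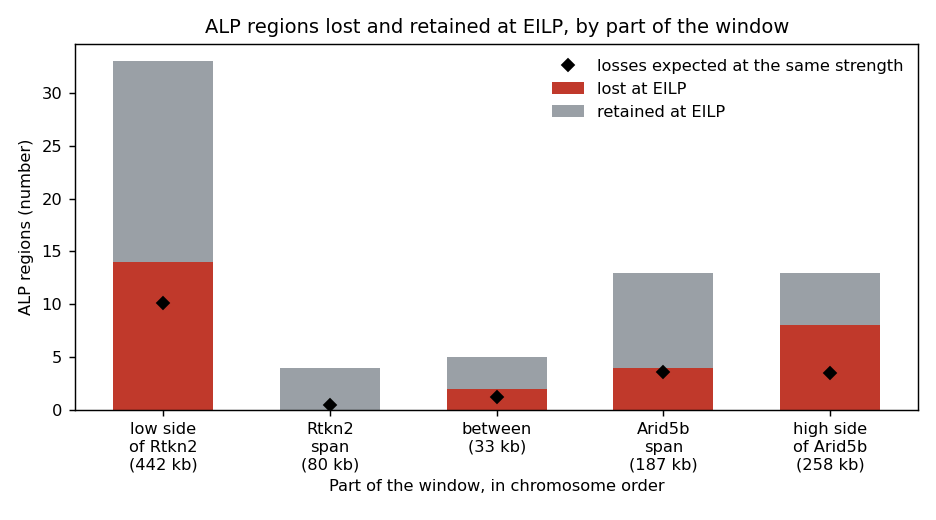
Number of ALP regions lost (red) and retained (grey) at EILP in each of the 5 parts of the stretch, with the number expected at the genome-wide loss share of regions of the same strength (diamonds). Losses pass the diamonds below Rtkn2 (14 against 10.2), between the genes (2 against 1.23) and above Arid5b (8 against 3.49). In the Arid5b span they are close to it (4 against 3.62), and in the Rtkn2 span below it (0 against 0.469).

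Weaker regions were lost more often genome-wide, so the losses were set beside those of regions of like strength. The 28 lost regions had a median ALP height of 10 tags (5 to 14) and a median fold of 5.57 (3.28 to 8.24). The 40 retained ones had a median height of 13 tags (6 to 48) and a median fold of 7.15 (4.05 to 14.3). With ALP regions split into quintiles of fold enrichment, the genome-wide shares gave 19.0 expected losses in the stretch against the 28 seen, 1.48 times as many.

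The weakest quintile lost 9 of 14 (64.3%) in the stretch and 54.7% in the rest of the genome, and the next quintile lost 8 of 17 (47.1%) and 37.5%. In the middle quintile the stretch lost 9 of 20 (45.0%) and the rest of the genome 20.4%. In the upper quintiles it lost 2 of 11 (18.2%) against 6.91% and 0 of 6 against 1.22%. These shares use the same losses that chose the stretch, so they describe it and test nothing.

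**Figure D3:**
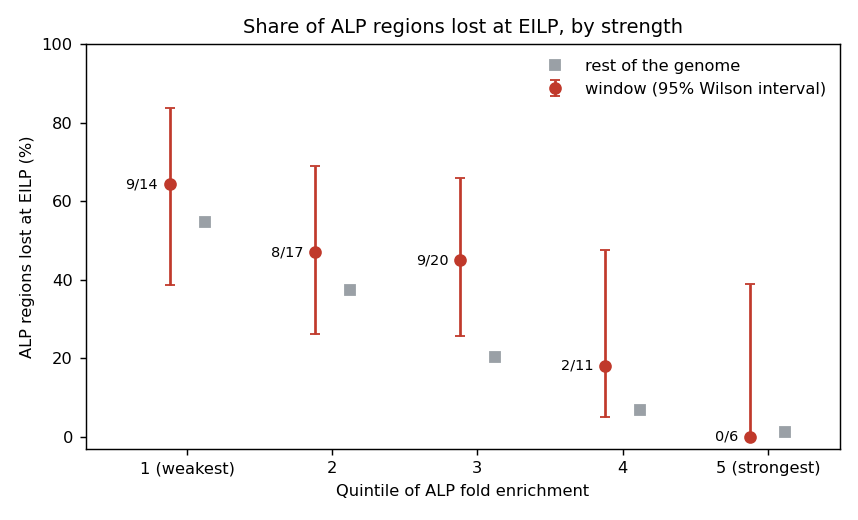
Share of ALP regions lost at EILP in % by quintile of ALP fold enrichment, in the stretch (red, 95% Wilson interval, with lost over total) and in the rest of the genome (grey squares). The share falls with strength in both, with 9 of 14 lost in the weakest quintile of the stretch and 0 of 6 in the strongest.

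The lost regions were low. Scaled by the ratio of tags, 0.905 for EILP over ALP, their ALP heights correspond to 4.52 to 12.7 tags at EILP (median 9.05), while the lowest EILP DHS of the stretch had 6 tags. Peaks at or above the median fold of their list give a stricter view: 7 of 29 such ALP peaks were absent from the whole EILP list, or 24.1% (12.2 to 42.1), beside 6.82% genome-wide. In the other direction 4 of 22 such EILP peaks were absent from the whole ALP list, or 18.2% (7.31 to 38.5), beside 10.5%. These genome-wide shares are not matched for strength, and the ALP losses are among those that chose the stretch. A lost region was usually far from any EILP DHS: the median gap was 8.81 kb, the smallest 127 bp, and 1 of 28 had an EILP DHS within 500 bp.

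The strongest lost region lay at 67428851 to 67429294, on the Rtkn2 start side and outside its span, with 13 tags in ALP (fold 8.24) and no DHS at EILP or ILCP. Next to it, 67406445 to 67406588 had 12 ALP tags (fold 7.81) and was likewise an ALP site alone. With 67374274 and 67375328 (7 and 5 tags) they form 4 consecutive lost ALP regions over 55.0 kb, none of which was open again at ILCP. The nearest of these 4 lies 12706 bp from the Rtkn2 span, whose own regions were all retained.

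Inside the Arid5b span the lost regions were 67568020 to 67568207 with 13 ALP tags (fold 8.00), 67666734 to 67666870 with 11 (fold 7.21), 67634858 to 67635018 with 10 (fold 6.61) and 67701569 to 67701770 with 10 (fold 5.47). The first and the third had a DHS again at ILCP, with 7 and 8 tags. The last lay 127 bp from the EILP DHS at 67701897, in a region open at all 3 stages. Between the genes, 67538064 to 67538220 had 11 tags in ALP (fold 6.78), no DHS in EILP and 6 tags in ILCP. On the far side of Rtkn2, 67100187 to 67100389 was the tallest lost region, with 14 ALP tags (fold 7.46), and had 9 in ILCP.

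The last 200 kb of the stretch, a length chosen after its values were seen, lost 8 of 11 ALP regions, or 72.7% (43.4 to 90.3), where strength alone gave 2.91. The 8 include close pairs counted apart, at 67896869 and 67897205 and at 67953477 and 67953672. No region was gained in these 200 kb at EILP. The 3 retained regions were all lower at EILP than at ALP in depth-scaled height, with log2 ratios of -0.44, -0.93 and -0.94. The tallest of them, 67882712 to 67882994, had 19 tags in ALP, 9 in EILP and 14 in ILCP. DHS in these 200 kb covered 2062 bp in ALP, 447 bp in EILP and 497 bp in ILCP.

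This end also held 5 consecutive lost ALP regions over 81.9 kb, at 67908795, 67935706, 67953477, 67953672 and 67990348, with 9 to 12 ALP tags and none of them a DHS at ILCP. Among them, 67953477 to 67953612 and 67953672 to 67953834 are close neighbours that share no base, and they were counted apart. Counting ALP regions in chromosome order, runs of 4 or more took 9 of the 28 lost regions of the stretch, or 32.1%, and 7.49% of those of the genome, which had 77 runs of 5 or more. Runs lengthen by construction where more regions are lost, and the stretch was chosen for its losses, so this contrast restates the choice. The run of 5 ends 9327 bp before the edge of the stretch. Beyond that edge the next region, at 68004481 to 68004775, was open at all 3 stages with 29, 19 and 27 tags, and at the low edge the nearest region outside, at 66998814 to 66999005, had no DHS in ALP, 16 tags in EILP and 19 in ILCP.

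The weakest lost regions were 67070476 (5 tags, fold 3.28), 67375328 (5 tags, fold 3.61) and 67070626 (6 tags, fold 3.80). The last of these had 13 tags in ILCP. The weakest retained ones were 67715496 (11 tags in EILP, 6 in ALP, ALP fold 4.05), 67740471 (12 in EILP, 16 in ALP, ALP fold 4.70) and 67028888 (7 in ALP, 22 in EILP and 25 in ILCP, ALP fold 4.81). The lost and the retained regions therefore overlapped in strength.

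The neighbouring windows of 1 Mb lost about as many regions as their strength gave. The window below lost 13 of 49 ALP regions (26.5%; 13.0 expected from strength) and the window above 8 of 31 (25.8%; 8.06 expected). Of the other windows with the most losses, the one from 75000001 on chromosome 11 lost 29 of 95 (24.0 expected), the one from 116000001 on chromosome 12 lost 27 of 55 (13.6 expected) and the one from 80000001 on chromosome 10 lost 27 of 154 (36.8 expected). The count of losses thus stood above its strength-matched value by 1.98 times on chromosome 12, 1.48 times here and 1.21 times on chromosome 11, and below it, at 0.734 times, in the other chromosome 10 window.

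The regions gained at EILP were 10 below Rtkn2 and 6 in the Arid5b span, with 0 in the remaining parts. The strongest was 67303493 to 67303968, with no DHS in ALP, 23 tags in EILP (fold 11.8) and 27 in ILCP (fold 11.6). It was followed by 67184665 to 67184866, with 15 EILP tags (fold 9.76) and 10 in ILCP, and by 67325135 to 67325328, with 12 (fold 8.07) and 13. In the Arid5b span, 67703616 to 67704014 had 16 tags in EILP (fold 7.08) and 16 in ILCP (fold 7.36), and 67684863 to 67685007 had 9 in EILP (fold 6.25) and was a DHS at no other stage. At ILCP 10 of the 16 gained regions were still DHS, or 62.5% (38.6 to 81.5), beside 49% genome-wide. The Arid5b span held 13 regions in ALP, 15 in EILP and 15 in ILCP, and 6 of its 22 merged regions were open at all 3 stages.

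Among the 40 regions open at both stages, 20 were higher and 20 lower at EILP than at ALP. Heights were divided by the tags of each list, and the log2 ratio of EILP over ALP had a median of -0.00314 over 40 regions (lowest -0.94, highest 1.80), while the genome-wide median of this ratio was 0.14. Above that genome-wide median were 14 of the 40. In the Arid5b span 7 of 9 regions were above 0 and 4 of 9 above the genome-wide median. In the Rtkn2 span 1 of 4 was above 0, and the same 1 above the genome-wide median. At least doubled at EILP were 67028888 (log2 ratio 1.80), 67073448 (22 tags in EILP and 11 in ALP, log2 ratio 1.14) and 67715496 in Arid5b (log2 ratio 1.02), and 0 fell by that much.

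**Figure D4:**
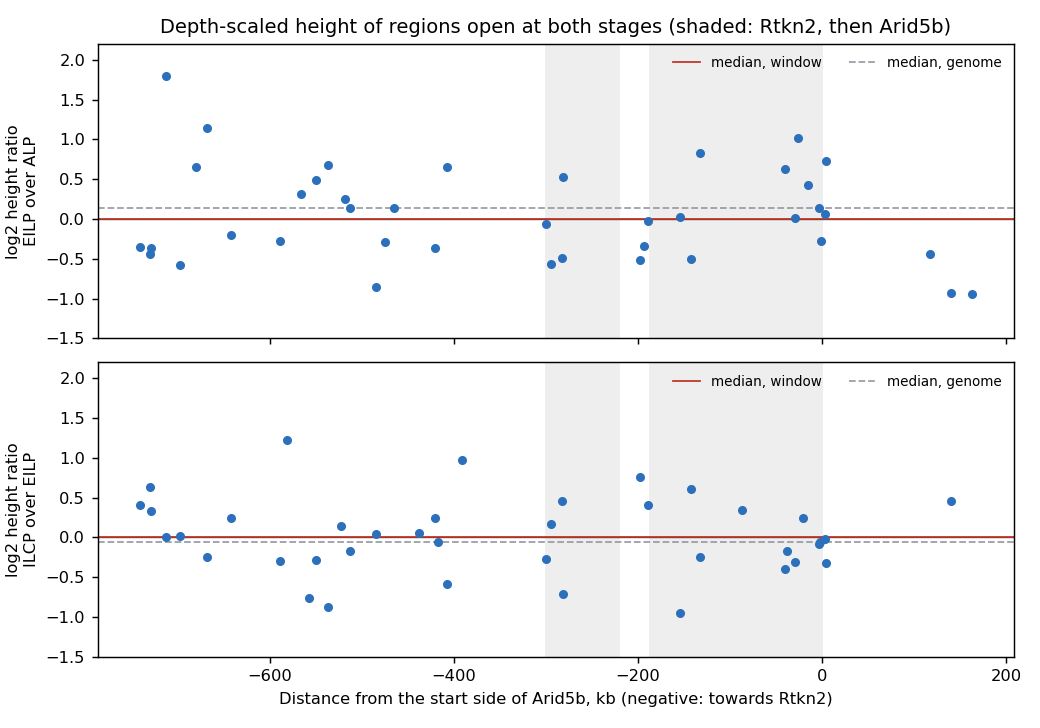
Log2 ratio of depth-scaled height, EILP over ALP (top, 40 regions) and ILCP over EILP (bottom, 39 regions), by distance in kb from the start side of Arid5b, with the gene spans shaded. Points scatter on both sides of 0 along the stretch, and the 3 points beyond 100 kb above Arid5b are all below 0 in the top panel.

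The step to ILCP was not used to choose the stretch, but it shares the EILP list with the contrast that was. At this step 17 of the 56 EILP regions had no ILCP DHS, or 30.4% (19.9 to 43.3), beside 28.4% genome-wide, and 21 of 60 ILCP regions had no EILP DHS and were gained, or 35.0% (24.2 to 47.6), beside 30.6%. Both shares are near the background. Of the 28 regions lost at EILP, 8 were open again at ILCP, or 28.6% (15.3 to 47.1), beside 26.5% genome-wide.

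The strongest region gained at ILCP was 67106360 to 67106776, with 9 tags in ALP (fold 4.72), no DHS in EILP and 33 tags in ILCP (fold 12.0). Its ILCP height was thus well above its ALP height, with a depth-scaled log2 ratio of 1.84. Next came 67190341 to 67190660 with 20 ILCP tags (fold 9.68), an ILCP site alone. It was followed in the Arid5b span by 67582162 to 67582346 with 16 ILCP tags (fold 8.67) and 67616757 to 67617032 with 13 (fold 8.09), and then below Rtkn2 by 67165891 to 67166146 with 14 (fold 7.85), all at ILCP alone. In the Rtkn2 span the single gained region, 67516922 to 67517150, had 12 ILCP tags (fold 7.39) and was outside the naming rule.

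Among ILCP peaks at or above the median fold, 8 of 31 were absent from the whole EILP list, or 25.8% (13.7 to 43.2), beside 10.6% genome-wide. Among such EILP peaks, 1 of 22 was absent from the whole ILCP list, or 4.55% (0.807 to 21.8), beside 11.4%. Here too the genome-wide shares are not matched for strength, and no matched value was worked out for this step. Strong sites absent from the EILP list thus numbered 7 in ALP and 8 in ILCP, and both counts rest on that same list.

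The strongest region lost at ILCP was 67267380 to 67267759, with 17 tags in EILP (fold 8.53) and 23 in ALP (fold 11.4). It was followed by 67223278 to 67223481 (14 EILP tags, 13 in ALP), 67715496 to 67715679 in Arid5b (11 EILP tags, 6 in ALP), 67684863 in Arid5b (9 EILP tags) and 67061370 to 67061663 (10 EILP tags, 7 in ALP). Of these 5, all but 67684863 were open at both earlier stages. Regions open at EILP and ILCP had a median log2 ratio of ILCP over EILP of 0.01 over 39 regions, with a genome-wide median of -0.06, and 1 at least doubled, 67160617 to 67160857 with 21 tags in ILCP and 8 in EILP.

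Over the whole series of stages, 29 of the 97 regions were open at all 3, or 29.9% (21.7 to 39.6), beside 39.0% genome-wide. Regions of ALP alone numbered 20, or 20.6% (13.8 to 29.7), beside 11.3%, and those of ALP and ILCP without EILP numbered 8, or 8.25% (4.24 to 15.4), beside 4.09%. Regions of ILCP alone numbered 13, or 13.4% (8.00 to 21.6), beside 17.2%, and those of EILP alone 6, or 6.19% (2.87 to 12.8), beside 9.65%. The widest excess over the genome in percentage points was that of ALP alone. Regions of ALP alone and those of ALP and ILCP without EILP are both lost at EILP, so the choice of the stretch selects both patterns.

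**Figure D5:**
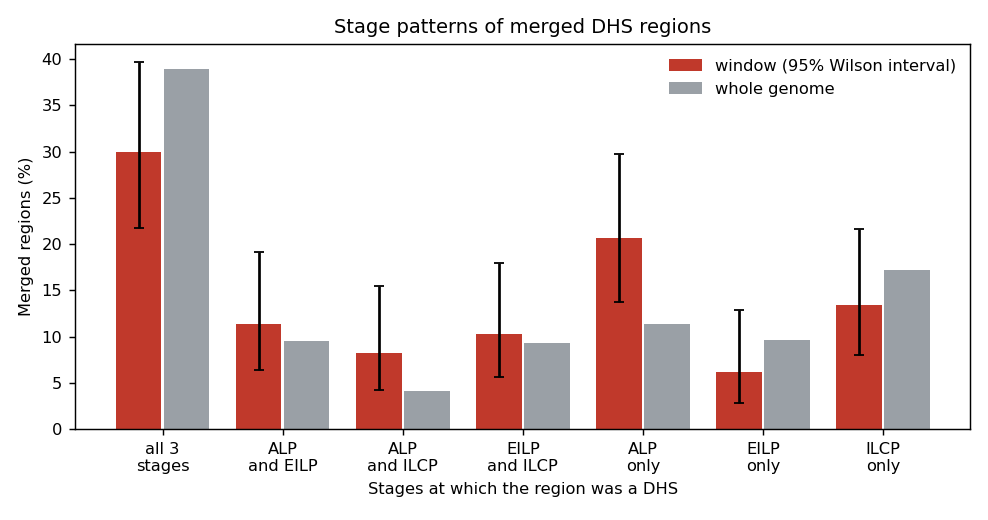
Share of merged DHS regions in % for each combination of stages, in the stretch (red, 95% Wilson interval, 97 regions) and in the whole genome (grey, 102384 regions). Regions of ALP alone make up 20.6% against 11.3%, and regions open at all 3 stages 29.9% against 39.0%.

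The start side of Rtkn2 was open at every stage. The region 67442107 to 67442528, 107 bp inside the low-coordinate end of the span, had 37 tags in ALP, 32 in EILP and 30 in ILCP, with folds of 14.3, 12.8 and 13.2. It had the highest ALP fold of the stretch. Behind it 67447437 to 67447676 had 18, 11 and 14 tags at the same stages, and 67459070 to 67459249 had 14, 9 and 14. The region 67460901 to 67461166 had 10, 13 and 9. The highest pileup of the stretch lay at its low edge, at 66999927 to 67000675, with 48 tags at ALP, 34 at EILP and 51 at ILCP.

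The start side of Arid5b held 4 DHS within 5 kb in ALP, 5 in EILP and 4 in ILCP. Inside the span, 67739126 to 67739434 had 16 tags at ALP, 16 at EILP and 17 at ILCP. The region 67739940 to 67740184 was not a DHS in ALP and had 12 in EILP and 13 in ILCP, and 67740471 to 67740626, 1374 bp from the end of the span, had 16 in ALP and 12 in EILP and was not a DHS in ILCP. Beyond the span, 67745293 to 67745490 had 18, 17 and 19 tags from ALP to ILCP, and 67745909 to 67746166 had 20, 30 and 27.

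The local background under these start-side peaks, worked out from height and fold as (height + 1) / fold - 1, was high. Its median within 5 kb of the Arid5b start side was 2.27 tags in ALP, 1.86 in EILP and 2.59 in ILCP, against medians over the stretch of 0.810, 0.860 and 0.955. These medians stand at the 92.5, 87.7 and 95.1 percentiles of all peaks of their lists. The part of this background in the loss of 67740471 at ILCP and the gain of 67739940 at EILP was not tested.

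The 8 TCF1 peaks were shallow, with 3 to 6 tags at the summit, as was the whole TCF1 list. Their median height was 5 tags and their median fold 4.92, against genome-wide medians of 5 tags and 5.15. Of the 8, 4 lay in an EILP DHS, or 50% (21.5 to 78.5), beside 57.5% genome-wide, and the same 4 lay in a DHS of any stage, beside 65.6%. Of the 56 EILP regions, 4 held a TCF1 peak, or 7.14% (2.81 to 17.0), beside 5.62%. All 4 were open at all 3 stages.

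In the Rtkn2 start region the TCF1 peak at 67442213 to 67442401 had 6 tags (fold 5.26), 145 bp from the EILP summit. In Arid5b, the peak at 67702129 to 67702232 had 6 tags (fold 6.00) in a region with 14 EILP tags, and that at 67599381 to 67599480 had 3 tags (fold 3.51), 10 bp from an EILP summit of 7 tags. The fourth, at 67012068 to 67012275, had 5 tags (fold 5.04) in a region with 12 EILP tags. These DHS had 7 to 32 EILP tags, and the strongest TCF1 peak by fold was in Arid5b.

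Outside any DHS, the peak at 67704165 to 67704320 in Arid5b had 5 tags (fold 4.81) and lay 151 bp from the region gained at EILP at 67703616. The peak at 67161010 to 67161195 had 4 tags (fold 4.43) and lay 197 bp from an EILP DHS, that of 67160617, which was also gained at EILP. The peak at 67107388 to 67107630 had 5 tags (fold 5.11) and was 612 bp from the ILCP DHS of 67106360 and 2449 bp from an EILP DHS. The peak at 67742899 to 67743019 had 4 tags (fold 4.29) and lay 899 bp beyond the start side of Arid5b, between the groups of DHS on either side of that end. With DHS widened by 500 bp, 6 of the 8 peaks touched one.

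Regions lost at EILP held 0 TCF1 peaks of 28 regions. A count of 0 allows a share of up to 10.7% if 3 counts are taken as its upper limit, and up to 12.1% by the Wilson interval, beside 0.924% genome-wide, and regions retained at EILP held 4 of 40, or 10.0% (3.96 to 23.1), beside 6.64%. TCF1 was measured in EILP, where lost regions are by definition not DHS. The nearest TCF1 peak to a lost region was 359 bp away, at 67702129 in Arid5b. The 200 kb at the high end held no TCF1 peak, and the depth of the TCF1 list limits what a missing peak shows.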

How the data were processed

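The 4 deposited peak lists come from DNase-seq of 3 stages and from CUT&RUN for TCF1 in EILP. They were made by the authors with MACS 2.1.1.20160309, per the file headers, on 1 pooled tag file per list at a q-value cutoff of 0.05, with 50 bp tags, 1 tag kept per position and 100 bp fragments. DNase tags were shifted by 50 bp, with no control and a 10 kb background window, and the TCF1 list used the pooled IgG file, per the file headers. The headers list in that control the library number of the libraries whose labels name both TCF1 and IgG, and TCF1 signal in a control lowers the fold. Positions are on mm9, the build named in the submitters' processing notes; the aligner is not given in the sources used here. The deposited pileup is a coverage signal in tags, the deposited fold enrichment is a ratio of pileup to local background, and the deposited −log10 of the q-value came from the same caller, per the file headers. The lists hold no expression values, so the sorts were not checked against marker genes.

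The 3 DHS lists were merged where peaks shared 1 bp. A region was lost at a step if it held a peak of the earlier list alone, and gained if of the later alone. Shares carry 95% Wilson intervals, for counting only. Close neighbouring regions that share no base were counted apart, and the intervals take them as independent. Expected losses apply the loss share of the rest of the genome in each of 5 strata of ALP fold. With 1 pooled list per stage there is no test, and the spread between libraries is unknown. Pooling, depth and the cutoff decide whether a low peak is listed. Python 3.11.15 and pandas 2.3.3 were used. The merging and calling code was run on simulated lists made by deleting peaks from the EILP list of 70088 peaks. Every removed peak was called lost in 40 of 40 draws. The kept peaks had identical positions in all simulated lists. This checks the code only, and not how shifted peaks or peaks near the cutoff are called.

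The genes, the stretch and the lists were chosen with earlier results of these data known. Regions were named by rule: the 10 strongest lost at EILP, the 5 strongest gained at EILP, lost at ILCP and gained at ILCP, the 3 strongest open at all stages, the weakest 3 lost and retained, every TCF1 peak, and the DHS nearest the start sides. Other regions were named after their values were seen. Alternatives changed the overlap rule, the peaks used, the strata, the gene spans and the scaling.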

Additional observations from a re-analysis of the deposited data

How the results depend on the processing

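The counts of this stretch depended most on which peaks were used. With peaks at or above the median fold of their list alone, 15 of 28 ALP regions were lost at EILP (53.6%, beside 24.1% genome-wide), 8 were gained at EILP and 6 were lost at ILCP. With such peaks looked for in the whole other list, 7 of 29 were lost at EILP (24.1%, beside 6.82%), 4 were gained at EILP, 1 was lost at ILCP and 8 were gained at ILCP. Both settings test fewer peaks by construction. The first also drops the weaker peaks of the other list, so a region with a weaker peak there counts as lost or gained. Widening the Rtkn2 span by 10 kb on each side brought 1 lost region into it, where the span itself held 0.

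Of 50 alternative values for 11 results, the other 40 stayed within 1.5 times or within their interval. Direction against the genome-wide share was not scored. The share lost at ILCP stood above the genome-wide share in the main setting, at 30.4% beside 28.4%. It stood below for the stronger peaks looked for in the whole other list, at 4.55% beside 11.4%. The expected losses ran between 17.8 and 20.6 over the other strata and comparison sets, against 28 seen. The stretch was chosen on those 28 losses, so a change of strata cannot test their excess. Without the last 200 kb, chosen after seeing the data, 20 of 57 ALP regions were lost (35.1%; 16.1 expected). The medians of the height ratio became -0.15 for EILP over ALP and 0.07 for ILCP over EILP when scaled by the genome-wide median. No paired analysis was possible because each list pools its libraries.

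Sites of 5 to 14 tags in pooled files without replicates make up the regions called lost at EILP, and tags below the cutoff are not listed. Libraries could not be left out in turn, since only pooled lists were used.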
